A study of Homo sapiens with 17 samples.

Results

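Fragments of 5 small non-coding RNAs were examined in the deposited alignment tables: RPPH1 (the RNA of ribonuclease P), RMRP (the RNA of ribonuclease MRP), RN7SK (7SK), and RN7SL1 and RN7SL2 (2 genes for 7SL). Members were chosen by position, with their ratios known from earlier results of these data: an alignment belonged to a gene when it lay wholly inside the gene's window in hg19 (GRCh37), on the strand of the RNA, at any length. The windows were chr14:20811207-20811559 (minus strand) for RPPH1, chr9:35657748-35658015 (minus) for RMRP, chr6:52860418-52860749 (plus) for RN7SK, chr14:50053298-50053595 (plus) for RN7SL1 and chr14:50329271-50329567 (minus) for RN7SL2. They held 2241 of the 14415896 distinct alignments in the 8 tables together, 1385 in RPPH1 and 856 in RMRP. The windows of RN7SK, RN7SL1 and RN7SL2 held 0, so the values below describe 2 of the 5 RNAs.

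The cells were K562, a human erythroleukemic cell line, carrying an shRNA against Drosha that doxycycline (Dox) induces. Dox was present in the medium at 1 µg/mL for 3, 13 or 31 days, and control cells of the same line grew in parallel with water in its place. The series has 17 small RNA libraries: 8 with Dox, their 8 controls, and 1 untreated library that is not analysed here. Each of the 8 tables belongs to 1 Dox and control pair, with 2 pairs at 3 d (replicates 1 and 3) and 3 pairs each at 13 d and 31 d. Library products for inserts of 20 to 40 nt were cut from a gel. Every group, controls included, carries the shRNA, and the sources used here do not say whether the line is a single clone. The level of DROSHA itself is not given by these tables, which list alignments of small RNAs.

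A table lists each alignment with a ratio of its 2 libraries, calculated by the authors. Which of the libraries is the numerator is not stated. A log2 ratio below 0 is therefore given below only as a numerator lower than the denominator, and no direction with Dox is drawn from it. That all 8 tables run the same way round is an assumption. A ratio of 0 means that an alignment had no reads in the numerator. Depth cannot be given per library, since the tables name no library for their other value columns. Single ratios thus carry no counting interval, and the spread between pairs is the only error. Some ratios recur exactly within a table, as a log2 ratio of 0.02 does in replicate 3 at 3 d. The RPPH1 window median in that table falls on this value. How many reads such ratios rest on was not examined.

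RNase P is a ribonucleoprotein whose RNA cuts the 5′ leader from precursor tRNAs. RNase MRP is its relative in the nucleolus, shares most of its protein subunits and takes part in the processing of precursor ribosomal RNA. 7SK holds the elongation kinase P-TEFb in an inactive complex with HEXIM proteins, and 7SL is the scaffold of the signal recognition particle, which brings ribosomes to the endoplasmic reticulum. RNA polymerase III makes all of them, and both ribonuclease RNAs fold so that their ends lie close together.

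The RNA sequences are shown because most of the recurrent fragments lie at the termini of the RNAs or at a few inner sites. They are GENCODE release 29 transcripts on GRCh38, not hg19, and window positions were not transferred to them base by base. For RMRP-201, which has the same length as the RMRP window (268 nt), capitals mark the first 32 and the last 28 bases. For RPPH1-201 (333 nt) the first 40 and last 40 bases are given, and capitals mark the 8 bases at each end that are complementary to each other.
RMRP-201, bases 1 to 268: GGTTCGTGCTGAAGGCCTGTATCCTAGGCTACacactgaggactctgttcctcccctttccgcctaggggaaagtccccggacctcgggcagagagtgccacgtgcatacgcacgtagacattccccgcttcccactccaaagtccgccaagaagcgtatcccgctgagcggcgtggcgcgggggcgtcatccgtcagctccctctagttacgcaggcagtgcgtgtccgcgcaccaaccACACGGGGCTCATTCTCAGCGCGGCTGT
RPPH1-201, bases 1 to 40: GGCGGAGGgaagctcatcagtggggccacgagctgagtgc
RPPH1-201, bases 294 to 333: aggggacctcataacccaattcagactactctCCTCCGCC

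No alignment on the strand of the RNA was listed for 7SK or for either 7SL gene in any of the 8 tables. On the opposite strand, 1 alignment lay inside the RN7SL2 window and 1 crossed the edge of the RN7SL1 window, both in the table of replicate 1 at 3 d. RN7SL1 and RN7SL2 are near-identical copies, but there was no listed alignment on which to compare them. An empty window here says only that these tables list no such alignment; the sources used here do not say how the authors placed or kept reads that match several loci, and no level of either RNA is drawn from it. Inside the RPPH1 window the opposite strand had 2, 1 and 1 alignments in the tables of replicates 1, 2 and 3 at 31 d and 0 in the others, and inside the RMRP window it had 0 in all 8.

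Fragments of RPPH1 and RMRP were short, and most were listed in 1 table only. RPPH1 alignments were 13 to 42 nt long with a median of 25 nt, and RMRP alignments 12 to 42 nt with a median of 26 nt. Of the 1385 RPPH1 alignments, 764 were listed in 1 table and 31 in all 8. Of the 856 RMRP alignments, 530 were listed in 1 table and 30 in all 8. A further 123 alignments crossed an edge of the RPPH1 window and 120 an edge of the RMRP window. Pseudogenes of RPPH1 are annotated in RefSeq, so reads shared with them could be counted at either place.

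The number listed differed widely between tables. For RPPH1 it was 599 and 1010 at 3 d, 242, 342 and 274 after 13 d, and 309, 101 and 170 at 31 d, in the order of the replicates. For RMRP it was 361 and 584 at 3 d, 125, 135 and 141 after 13 d, and 175, 95 and 110 at 31 d. Replicate 3 at 3 d listed the most for both RNAs and replicate 2 at 31 d the fewest. These are raw counts, and the tables also differed in size. For RPPH1, 242 of 871027 alignments in replicate 1 at 13 d was close in proportion to 1010 of 3428554 in replicate 3 at 3 d. Relative to table size, RMRP was lowest in replicate 3 at 31 d, with 110 of 2928996. Replicate 2 at 31 d had 95 of 1883449.

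**Figure D1:**
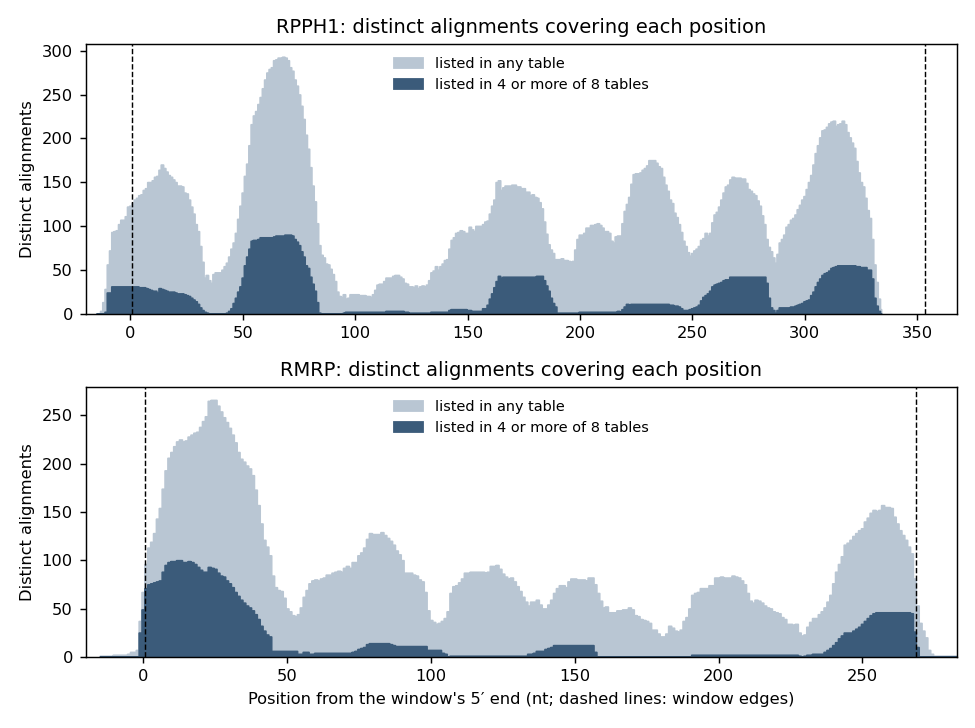
Number of distinct alignments covering each position of RPPH1 (top) and RMRP (bottom), counted from the window's 5′ end, with pale fill for alignments listed in any of the 8 tables and dark fill for those listed in 4 or more. RPPH1 was covered most at position 68 (293 distinct alignments) and RMRP at position 24 (266), and the dark fill is limited mostly to the termini and a few inner sites.

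Positions are counted along the RNA from 1 at the window's 5′ end, with 0 and negative numbers upstream of it. The 5′ end shared by most RPPH1 alignments was position -10, at chr14 position 20811570 and 11 nt upstream of the window, with 28 distinct alignments. Their most frequent 3′ end was position 330, at 20811230, with 29. The distance between these ends, 341 nt, equals the length of RPPH1 in RefSeq, whereas the window is 353 nt long. For RMRP the most frequent 5′ ends were at chr9 positions 35658017, 35658016 and 35658015, with 30, 30 and 29 distinct alignments, and the most frequent 3′ end was 35657748, with 28. The span from 35658017 to 35657748 is 270 nt, again the RefSeq length. In both RNAs the frequent outer ends thus lie as far apart as the ends of the annotated RNA, and many 5′-terminal alignments cross the window's edge. Terminal alignments below include those that cross the edge.

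Recurrent alignments were grouped into 6 sites in RPPH1 and 4 in RMRP, which were set after the positions and ratios had been seen. Some recurrent alignments lay outside them. RMRP position 80 was covered by 14 alignments listed in 4 or more tables and position 150 by 12. At RPPH1 position 230, inside a site, the number was 11. Inner sites are called by the 5′ and 3′ ends with most listings among their alignments, whose own ends vary by several nt. In RPPH1 these were the 5′ terminus (123 distinct alignments), positions 51 to 82 (142), 163 to 186 (91), 219 to 245 (82) and 259 to 283 (126), and the 3′ terminus (132). In RMRP they were the 5′ terminus (109), positions 7 to 44 (62) and 23 to 44 (83), and the 3′ terminus (121). The RMRP 5′ terminus was the most regular: 21 of its alignments had a ratio above 0 in all 8 tables, against 8 at each 3′ terminus, 4 at the RPPH1 5′ terminus, and from 0 to 3 at the inner sites.

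The share of listed alignments with a ratio of 0 was low at the RMRP 5′ terminus and varied widely between tables at the inner sites. At the RMRP 5′ terminus this share was 8.2% in both tables at 3 d, of 85 alignments in each. It was 8.5%, 6.2% and 18.5% in replicates 1, 2 and 3 after 13 d, and 4.2%, 35.1% and 11.1% at 31 d. At positions 51 to 82 of RPPH1 it was 84.8% and 30.7% at 3 d, of 105 and 140 alignments, and 7.4%, 78.3% and 43.9% at 31 d. At the RPPH1 5′ terminus the 3 d pairs had 40.7% and 51.2% and the 31 d pairs had 33.3%, 41.2% and 31.2%. The inner site thus lay above this terminus in some tables and below it in others. Positions 23 to 44 of RMRP had 94.9% and 54.3% at 3 d. Over all alignments of the series the share was 93.1% and 80.6% in the same tables, and it ranged from 73.2% to 93.1% over the 8 tables. The whole RPPH1 window ranged from 34.3% to 82.8% and the RMRP window from 29.7% to 78.1%, the lowest in replicate 1 at 31 d and the highest in replicate 1 at 3 d.

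Ratios below are log2 of the authors' ratio, for alignments with a ratio above 0 in every pair of the day. This kept 73, 37 and 18 RPPH1 alignments at 3, 13 and 31 d, and 60, 31 and 22 RMRP alignments. As wholes, the windows had pairs on both sides of 0 on every day, except RMRP at 3 d. The median log2 ratio of RPPH1 was -0.70 and 0.02 in replicates 1 and 3 at 3 d, with a mean of -0.34 ± 0.51 (SD, n = 2 pairs). The 13 d pairs had 0.44, 0.25 and -1.62 and the 31 d pairs 0.37, -0.42 and -0.06, in the order of the replicates. For RMRP the medians were 0.12 and 0.91 at 3 d, 0.85, 1.32 and -1.75 after 13 d, and 0.31, -0.11 and -0.41 at 31 d. Over all alignments that passed the same filter, the medians were -0.70 and 0.60 at 3 d, 0.60, -0.09 and 0.02 after 13 d, and 0.04, 1.42 and -0.28 at 31 d. For both RNAs the gaps to all alignments were widest in replicate 3 at 13 d and replicate 2 at 31 d, where the windows were lower.

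The window medians averaged over parts that lay far apart. At 3 d, 30 of the 73 RPPH1 alignments (41.1%) were below 0 in both pairs and 26 (35.6%) above 0 in both. Among all 111976 alignments with a ratio above 0 in both pairs, 25.9% were below 0 and 28.9% above 0 in both. For RMRP, 14 of 60 were below 0 in both pairs and 33 (55.0%) above 0. The high and the low ratios lay at different places along the RNA.

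**Figure D2:**
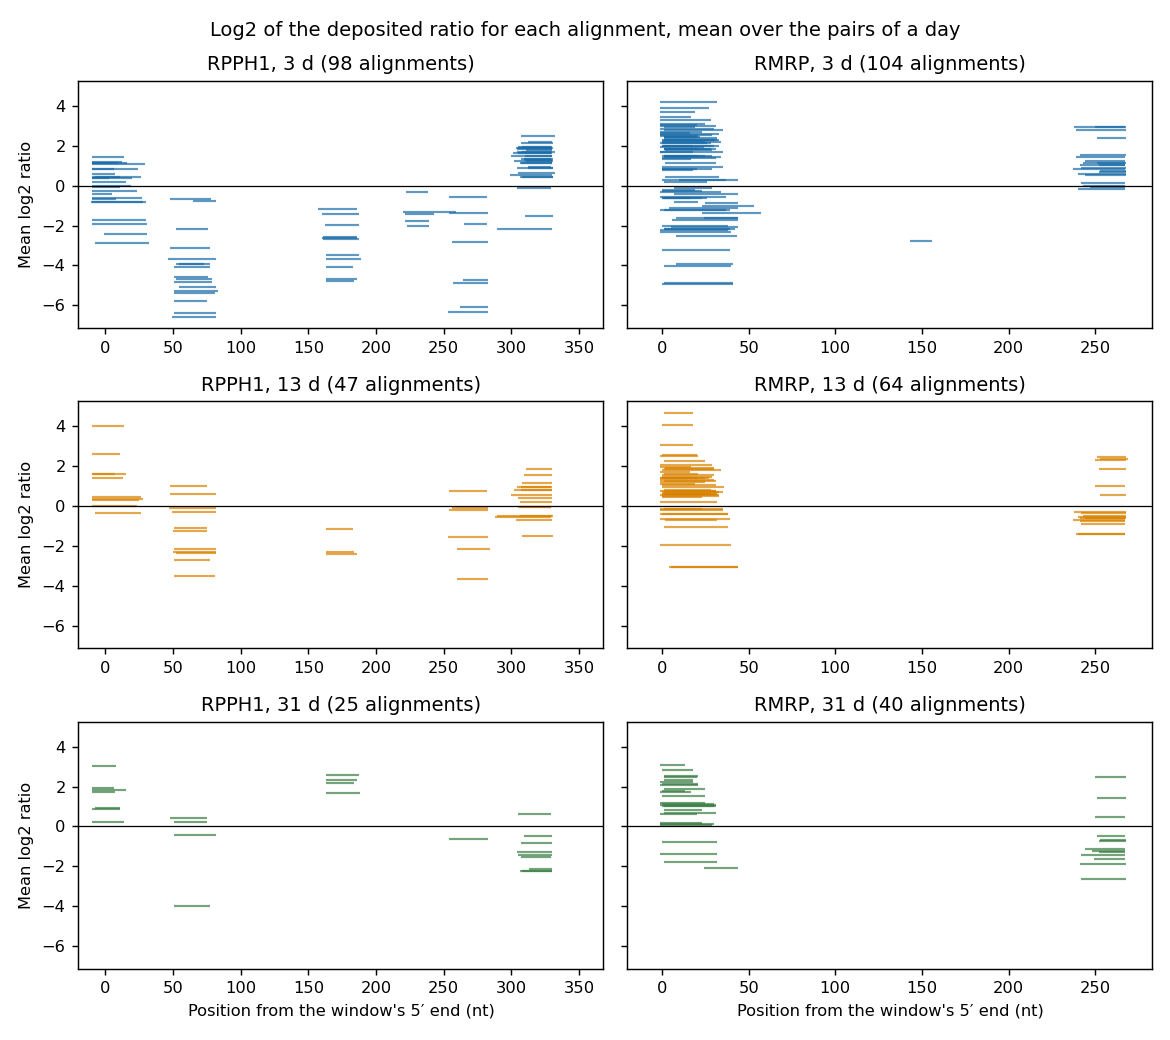
Each line is 1 alignment, drawn from its 5′ to its 3′ end along RPPH1 (left) or RMRP (right) at the height of its mean log2 ratio over the pairs of a day, at 3, 13 and 31 d from top to bottom; alignments that cross the window edge are included. At 3 d the inner sites of RPPH1 lie below 0 and its 3′ terminus mostly above 0.

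The inner site of RPPH1 at positions 51 to 82 (chr14:20811478-20811509) had low ratios in both pairs at 3 d. The median of its 16 alignments was -4.78 in replicate 1 and -3.58 in replicate 3, a mean of -4.18 ± 0.85 (SD, n = 2 pairs), and 15 of the 16 were below 0 in both pairs. In replicate 1 the site at positions 163 to 186 was lower, and in replicate 3 that at 259 to 283. At 13 d the medians were -0.25, -1.74 and -3.48 (11 alignments), all below 0 but spread over more than 3 log2 units. At 31 d they were 0.78, -2.52 and 0.57 (4 alignments), on both sides of 0, and with centring by length 0.55, 2.73 and -0.04.

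The alignment over positions 49 to 82 (34 nt, chr14:20811478-20811511), which earlier results of these data had named for its low ratio at 3 d, had log2 ratios of -9.84 and -3.30 in replicates 1 and 3 at 3 d. At 13 d it had 0.77, 0.89 and -2.61, and at 31 d 1.78 in replicate 1 with no ratio above 0 in the other 2 tables. Next to it, positions 51 to 82 had -9.25 and -3.49 at 3 d, -0.82, -1.74 and -3.93 after 13 d, and 1.36, -3.87 and 1.30 at 31 d. For these 2 alignments replicate 1 at 3 d was thus several log2 units below replicate 3. Others of the site differed less or the other way, as over positions 46 to 82 (37 nt), with -4.46 and -2.95, and 48 to 78 (31 nt), with 1.30 and -2.68. A shorter one, at positions 51 to 77, was the lowest of all RPPH1 alignments with a ratio above 0 in the 8 tables: -4.44 and -3.75 at 3 d, -0.98, -2.16 and -4.97 after 13 d, and -0.97, -6.07 and -4.93 at 31 d. It was below 0 in 8 of 8 tables, unlike the 2 named above that end at position 82. However, it was chosen as the lowest of 14 alignments by its mean over the same tables.

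The site at positions 163 to 186 (chr14:20811374-20811397) behaved unevenly between pairs. The median of 11 alignments at 3 d was -5.75 in replicate 1 and 0.03 in replicate 3, a mean of -2.86 ± 4.09 (SD, n = 2 pairs), so the low mean came from 1 pair. At 13 d the medians of 3 alignments were 2.96, -2.82 and -6.13. At 31 d the site had 38, 9 and 24 listed alignments, of which 0%, 55.6% and 20.8% had a ratio of 0. The 4 with a ratio above 0 in every pair had medians of 2.77, 2.75 and 1.46, a mean of 2.33 ± 0.75 (SD, n = 3 pairs). Each of these 4 had a log2 ratio above 0 in every pair, as had 22.5% of all alignments that passed the same filter. A 22 nt alignment over positions 163 to 184 carried this pattern, with -9.15 and -0.46 at 3 d, 4.71, -5.42 and -6.13 after 13 d, and 2.31, 3.37 and 0.87 at 31 d.

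The remaining inner sites of RPPH1 were also below 0 at 3 d. At positions 259 to 283 (chr14:20811277-20811301) the median of 8 alignments was -2.74 in replicate 1 and -5.41 in replicate 3, here with replicate 3 the lower, and 5 of the 8 were below 0 in both pairs. Its medians were -0.48, -0.93 and -1.26 at 13 d (6 alignments), below 0 in every pair as deposited, although centring by length put replicate 3 at 0.78. At 31 d its 1 alignment had 0.28, -4.25 and 2.04, on both sides of 0. Within it, positions 253 to 283 (31 nt) had -5.95 and -6.72 at 3 d, then -1.47, -1.06 and -2.16 at 13 d. At positions 219 to 245 the median of 4 alignments was -2.11 and -0.82 at 3 d, and no alignment of that site had a ratio above 0 in every pair at 13 d or 31 d.

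The termini of RPPH1 differed from its inner sites. At the 3′ terminus the median of 32 alignments was 1.12 and 1.65 at 3 d, a mean of 1.39 ± 0.37 (SD, n = 2 pairs), and 26 of the 32 were above 0 in both pairs. It was 1.41, 0.91 and -0.90 at 13 d (17 alignments), and -0.64, -1.25 and -1.57 at 31 d (9 alignments), below 0 in each of the 3 pairs. Positions 309 to 330, the highest of the RPPH1 alignments inside the window with a ratio above 0 in all 8 tables, had 0.65 and 1.87 at 3 d, 2.86, 1.26 and 0.57 after 13 d, and -0.22, 0.32 and -1.57 at 31 d. The 5′ terminus lay near 0 at 3 d, with medians of 0.30 and -0.30 (25 alignments). At 31 d its medians were 0.41, 2.69 and 0.76 (7 alignments), above 0 in each pair, whereas the 3′ terminus was below 0 in the same tables.

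**Figure D3:**
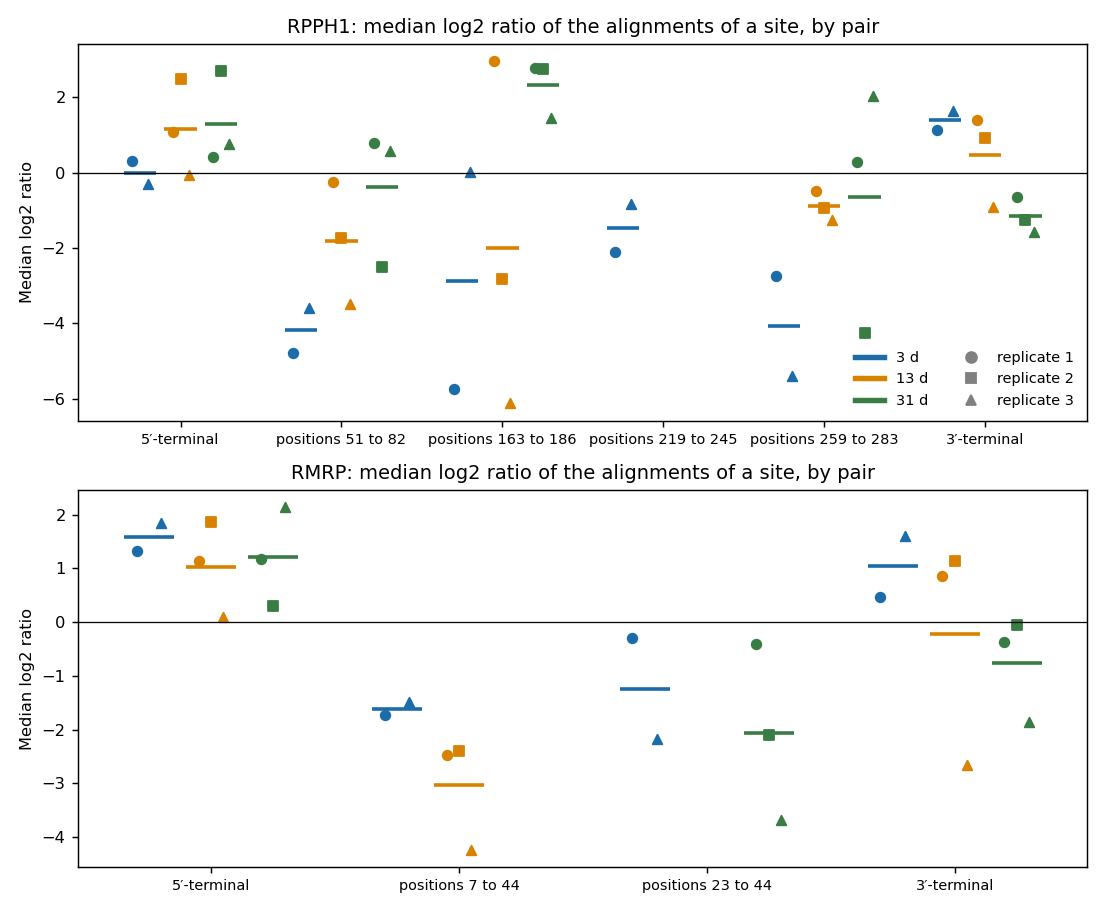
Median log2 ratio of the alignments at each site of RPPH1 (top) and RMRP (bottom), with 1 point per pair (colour for the day, shape for the replicate) and a bar at the mean of a day's pairs; a site with no alignment above 0 in every pair of a day has no point. At RPPH1 positions 51 to 82 the 3 d points are at -4.78 and -3.58, and at its 3′ terminus at 1.12 and 1.65.

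RMRP fragments had their highest ratios at the 5′ terminus. The median of 68 alignments that start at positions -2 to 2 was 1.32 and 1.85 at 3 d, a mean of 1.59 ± 0.37 (SD, n = 2 pairs), and 48 of the 68 were above 0 in both pairs. It was 1.13, 1.87 and 0.09 at 13 d (45 alignments) and 1.18, 0.30 and 2.14 at 31 d (26 alignments), above 0 in 8 of 8 tables as deposited and with centring by length, and in 7 of 8 with each table centred on its median, where replicate 2 at 31 d had -0.65. Positions 1 to 18 gave the highest alignment inside the window: 1.21 and 2.74 at 3 d, 4.57, 3.68 and 5.79 after 13 d, and 0.93, 4.58 and 1.48 at 31 d. Every pair had a numerator above the denominator for this 18 nt fragment. It was chosen by its mean over the same pairs, as the highest of 14 inside the window with a ratio above 0 in all 8 tables.

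Fragments just inside the RMRP 5′ end had low ratios. At positions 7 to 44 (chr9:35657972-35658009) the median of 8 alignments was -1.73 and -1.50 at 3 d, a mean of -1.61 ± 0.17 (SD, n = 2 pairs), and 6 of the 8 were below 0 in both pairs. At 13 d its 2 alignments had medians of -2.47, -2.40 and -4.24. The alignment over positions 5 to 44 (40 nt) had -1.95 and -2.20 at 3 d, -2.56, -2.46 and -4.10 after 13 d, and -0.70 and -2.75 in replicates 1 and 2 at 31 d; it was below 0 wherever it had a ratio above 0. The shorter alignment over positions 24 to 44 had -0.68 and -2.57 at 3 d and -0.41, -2.10 and -3.68 at 31 d. These sites were thus low in the tables in which most 5′-terminal alignments were high. The alignments of the site at positions 7 to 44 were also long, with a median of 37.5 nt at 3 d. Alignments of 38 to 42 nt that start at positions -1 to 1 were low at 3 d too, with medians of -4.03 and -0.94. With centring by length, positions 7 to 44 had -1.33 and -1.56 at 3 d and -1.30, -3.52 and -0.89 at 13 d. Whether start or length goes with these low ratios was not tested.

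The RMRP 3′ terminus had medians of 0.47 and 1.60 at 3 d (21 alignments), 0.85, 1.13 and -2.65 at 13 d (17 alignments), and -0.37, -0.05 and -1.87 at 31 d (13 alignments). As at the RPPH1 3′ terminus, both pairs at 3 d were above 0 and the 3 pairs at 31 d below it as deposited, but at 3 d replicate 1 was at -0.12 with each table centred on its median and at -0.04 with centring by length. Positions 242 to 268, the lowest of the RMRP alignments inside the window with a ratio above 0 in all 8 tables, had 0.68 and 1.11 at 3 d, 0.69, 1.19 and -2.91 after 13 d, and -1.03, -4.66 and -2.28 at 31 d. Shorter alignments with the same 3′ end differed. Those over positions 250 to 268 (19 nt) and 251 to 268 (18 nt) were above 0 in 8 of 8 tables. At 31 d the first had 2.55, 4.56 and 0.30, and the second 0.65, 2.68 and 1.02. Still shorter ones lay on both sides of 0. At 31 d positions 252 to 268 (17 nt) had -2.42, 2.42 and -2.11, and positions 253 to 268 (16 nt) had -0.96, 0.83 and -1.87.

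Length went with the ratio in several tables. Among RMRP alignments that start at positions -1 to 1, those of 15 to 25 nt had medians of 1.46 and 2.34 at 3 d, and those of 26 to 37 nt had 1.84 and 2.02. Those of 38 to 42 nt had -4.03 and -0.94, with 11 of 12 and 12 of 14 below 0. Both pairs at 3 d thus changed sign above 37 nt. For comparison, medians were taken over all alignments of the series with a ratio above 0 in all 8 tables. In replicate 1 these also changed sign, from 0.45 at 26 to 37 nt to -0.85 at 38 to 42 nt (98 alignments). In replicate 3 they did not, with 0.02 and 0.51. In replicate 1 at 31 d the same long RMRP alignments had a median of 1.21, with 14 of 14 above 0.

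In replicate 3 at 13 d and replicate 2 at 31 d those RMRP alignments had lower medians in the longer length classes. Their medians were 2.83 at 15 to 25 nt, -0.54 at 26 to 37 nt and -2.48 at 38 to 42 nt in replicate 3 at 13 d. They were 3.27 and -3.17 for the shorter classes in replicate 2 at 31 d, which had none of 38 nt or more. All alignments of the series also had lower medians at 26 to 37 nt than at 15 to 25 nt in these tables, with -0.29 and -1.99 in replicate 3 after 13 d, and 0.34 and -4.75 in replicate 2 at 31 d. In the longest class all alignments had -3.41 and -2.55, in replicate 2 at 31 d higher than the class before. With each table centred on the median of its alignments of the same length, the window medians of these tables changed sign. RPPH1 went from -1.62 to 0.40 in replicate 3 at 13 d and from -0.42 to 2.11 in replicate 2 at 31 d, and RMRP from -1.75 to 0.78 and from -0.11 to 1.43. With the same centring the RPPH1 site at positions 51 to 82 had -5.39 and -3.80 at 3 d, as low as without centring, and the RMRP 5′ terminus had 0.60 and 1.08.

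**Figure D4:**
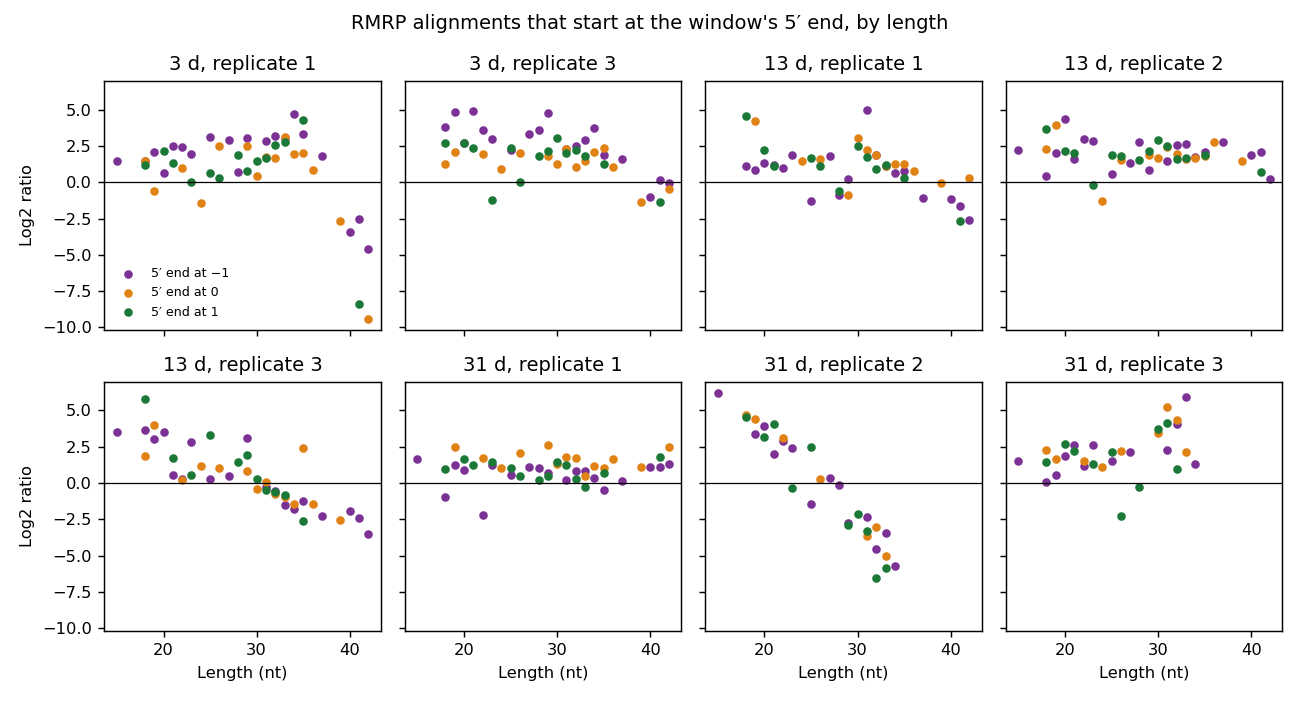
Log2 ratio against length for 49 RMRP alignments that start at positions -1, 0 or 1, with 1 panel for each pair; shown are those with a ratio above 0 in at least 6 tables or with a called difference. In both 3 d panels the alignments over 37 nt lie below most shorter ones. In replicate 3 at 13 d and replicate 2 at 31 d longer alignments mostly lie lower, and the latter has none of 38 nt or more.

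Calls from a limma fit across all alignments of the series (adjusted p below 0.05) are given as a description, because the members were chosen with this contrast known. At 3 d, 16 of the 133 alignments tested inside the windows were called lower and 0 higher, 15 in RPPH1 and 1 in RMRP, where 3.69% of all alignments tested were called. Of the 15 in RPPH1, 9 lay at positions 51 to 82, 4 at the site of positions 259 to 283 and 2 at that of 163 to 186. At 13 d, 1 of 68 was called higher, the RMRP alignment over positions 1 to 18, and 4 lower, against 10.6% of all. At 31 d, 1 of 40 was called lower, the RPPH1 alignment over positions 51 to 77, against 1.55%. With centring by length the calls were 4 higher and 3 lower at 13 d and 2 higher and 0 lower at 31 d. Without replicate 1 at 3 d the 16 calls at 3 d became 4, and without replicate 3 or replicate 2 at 13 d the 5 calls at 13 d became 0 and 1. These 5 became 3 without replicate 1 or without replicate 3 at 31 d, whose tables enter the shared estimate of the spread. Without replicate 2 or replicate 3 at 31 d the call at 31 d was lost.

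Between days, 2 of 53 alignments inside the windows were called higher at 13 d than at 3 d, against 11.3% of all alignments tested. Both lay in RPPH1, at positions 49 to 82 and 253 to 283. At 31 d against 3 d, 5 of 34 were called higher, against 7.47%, again all in RPPH1: 2 at the site of positions 51 to 82 and 3 at that of 163 to 186. Without replicate 1 at 3 d both counts became 0. Without replicate 2 at 13 d the 13 d against 3 d count also became 0, and without replicate 1 or replicate 3 at 13 d, or replicate 1 or replicate 3 at 31 d, it became 1. Without replicate 3 at 3 d it became 4 and without replicate 2 at 31 d it became 3. Without replicate 1 at 31 d the 31 d against 3 d count became 2. Between 31 d and 13 d, 0 of 30 were called by limma, as were 0% of all, and 3 of the 30 had an unadjusted p below 0.05. The comparisons with 3 d share the 3 d tables.

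Alignments with 1 common 5′ end were also grouped where at least 3 had a ratio above 0 in all 8 tables. Of 1696 such stacks in the series, 2 lay inside the windows, at RMRP position 1 (6 alignments) and RPPH1 position 51 (3 alignments). The RPPH1 stack had a fitted log2 ratio of -5.21 ± 1.14 (SE) at 3 d, -2.31 ± 0.93 at 13 d and -1.18 ± 0.93 at 31 d, and was called lower at 3 d, where 12.1% of all stacks were called. The RMRP stack had 1.87 ± 0.75, 1.65 ± 0.61 and 1.17 ± 0.61, and was called on no day. No stack inside the windows was called at 13 d or 31 d, against 30.8% and 17.0% of all, nor between 13 d and 3 d or 31 d and 3 d, against 26.5% and 25.4%. Between 31 d and 13 d, 0% of all stacks were called. At an unadjusted p below 0.05, limma had both stacks at 13 d, 0 at 31 d, 0 between 13 d and 3 d, 1 between 31 d and 3 d and 0 between 31 d and 13 d. Without either pair at 3 d the call at position 51 was lost, and without replicate 2 at 31 d both stacks were called at 13 d and 1 between 31 d and 3 d. Of stacks that start upstream of a window, RMRP position -1 (10 alignments) was called higher at 3 d, at 2.91 ± 0.81, and RPPH1 position -10 (4 alignments) at 13 d, at 2.84 ± 0.60.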

How the data were processed

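The authors aligned small RNA reads to hg19 (GRCh37), and Bowtie2 2.2.9 is named, per the submitters' processing notes. Each deposited table gives, for every distinct alignment, the authors' ratio of 2 libraries; it was checked to equal the quotient of 2 other columns. The numerator is not stated, and 32 value columns without a library name were not used beyond that check, so depth is unknown. Ratios were used on the log2 scale with no pseudocount; a ratio of 0 was left out of medians and fits. Medians were taken per window and pair, and a model with 1 mean per day was fitted with limma 3.58.1 (robust empirical Bayes; R 4.3.3) to all alignments above 0 in every pair of a day, with Benjamini-Hochberg adjustment. Its variance was nearly common to all alignments, so its p-values may be too small. The fit was tested on simulated data with independent normal noise of the same spread for every alignment. That test cannot show how the fit behaves on these ratios. Members, lists and sites were chosen with earlier results of these data known. Named alignments were the highest and lowest means over the 8 tables, those called between days, and 1 named in earlier results; others were chosen after their values were seen. Pairs are separate biological replicates per the labels. Protein subunits and cell markers were not examined, as no hg19 annotation was used. Alternatives were centring, a length minimum, edge overlap, other filters, single-day fits, a replicate block and leaving out pairs.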

Additional observations from a re-analysis of the deposited data

Results flagged for a closer look

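Of the RPPH1 alignments, 7 differed between days in the limma fit across all alignments. From 3 d to 13 d the log2 ratio was higher by 6.26 at positions 49 to 82 and by 4.77 at positions 253 to 283. From 3 d to 31 d it was higher by 6.05 at positions 51 to 75, by 5.97 at positions 51 to 82, and by 6.99, 7.02 and 6.02 at positions 163 to 184, 163 to 186 and 163 to 187. Replicate 1 at 3 d had a lower ratio than replicate 3 in 6 of these 7 alignments, all but the one at positions 253 to 283.

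As deposited, both 3′ termini lay on opposite sides of 0 at 3 d and 31 d in every pair. The RPPH1 3′ terminus had a mean median log2 ratio of 1.39 at 3 d and -1.15 at 31 d, and the RMRP 3′ terminus 1.04 and -0.76. For RPPH1 the sides stayed opposite with either centring. For RMRP they did not: the 3 d mean was -0.06 with each table centred on its median, and replicate 1 at 3 d was at -0.04 with centring by length. The medians of the 2 days are not over the same set of alignments. For RPPH1 there were 32 at 3 d and 9 at 31 d. For RMRP there were 21 and 13, with a median length of 26 nt and 19 nt. These differences between days were not tested.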

How the results depend on the processing

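Depth is unknown, a numerator is not named, and alignments of 1 site share reads' ends, so the pairs are the only replicates; 3 d has 2. Centring moves each table by its own median (0.59 and 1.60 at 3 d, 0.83, -0.16 and 0.03 at 13 d, 0.26, 0.95 and -0.59 at 31 d, replicates in order). Centred on that median, the alignments called were 37 at 3 d, all lower, 9 at 13 d (8 lower) and 4 between 13 d and 3 d. Centred by length they were 32 at 3 d (31 lower), 7 at 13 d (4 higher and 3 lower, against 1 and 4 as deposited), 2 at 31 d, both higher, and 5 between 13 d and 3 d. Stacks called were then 2 at 13 d, 1 at 31 d, 1 between 13 d and 3 d, and 1 between 31 d and 3 d, the last also with median centring. With any overlap of a window, 8 alignments (4 higher) and 1 stack were called at 13 d and 2 stacks at 3 d. Fitted alone, 13 d had 1 stack called, and with 5 alignments per stack 3 d had 0. The cause of these changes was not tested.

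The median of RPPH1 at 3 d was -1.44 with median centring, -1.31 with length centring, and 1.06 over alignments above 0 in all 8 tables. At 31 d it was 0.76 with length centring, 0.39 with edge overlap and -0.76 over those above 0 in all 8 tables. The median of RMRP at 3 d was -0.58 with median centring, 1.09 with edge overlap and 1.64 over those above 0 in all 8 tables. At 31 d it was 0.39, 0.35, 0.73 and 0.49 with length centring, with 18 nt or longer, with edge overlap and over those above 0 in all 8 tables.

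With a replicate block, 5 alignments were called at 3 d, 1 at 13 d, and 0 at 31 d, between 13 d and 3 d and between 31 d and 3 d. Whether the replicate numbers pair the tables across days is not known. Deviations of same-numbered tables from different days correlated from -0.52 to 0.31 over 26250 alignments, and not every table correlated best with its own number. These values cannot decide the question, because deviations within a day offset each other. With replicate 3 at 31 d, for example, replicates 1 and 3 at 3 d had 0.37 and -0.37.

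Leaving out 1 pair, the alignments called ranged from 4 to 23 at 3 d, 0 to 6 at 13 d, 0 to 1 at 31 d, 0 to 4 between 13 d and 3 d, 0 to 5 between 31 d and 3 d, and 0 to 2 between 31 d and 13 d (without replicate 1 at 13 d). Stacks ranged from 0 to 1 at 3 d, 0 to 2 at 13 d and 0 to 1 between 31 d and 3 d. The RPPH1 median ranged from -0.70 to 0.02 at 3 d, -0.68 to 0.34 at 13 d and -0.24 to 0.16 at 31 d, and the RMRP median from 0.12 to 0.91, -0.45 to 1.09 and -0.26 to 0.10.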
